A study of Mus musculus with 12 samples.

Results

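The transcripts of 8 genes for acute phase proteins were measured in Lewis lung carcinoma (LLC) tumours from 4 groups of treated mice. The genes were Saa3, Hp, Serpina3n, Lbp, Lcn2, Rarres2, Serpina3g and Cp, taken by name from the deposited table, in which transcript values were summed to 53801 genes. All 8 were among the 14246 genes with a mean of at least 1 FPKM (fragments per kilobase of transcript, scaled to a fragment total per library) over the 12 libraries. They were chosen by earlier results on the FPKM of these same libraries, most of them for being higher with brivanib alone than with vehicle, and no record says which value chose each. For that reason the values of brivanib against vehicle and of the combination against brivanib are given as a description, with no test. The members just inside and outside the pattern that chose most of them were Lcn2, with a difference of 1.80 on the log2 scale between brivanib and vehicle, and Serpina3g, with 0.015.

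LLC is a transplantable lung carcinoma line of C57BL/6 mice. In all groups 3 M cells (M, 1e6) in Matrigel were injected into the flanks of C57BL/6 females aged 6 to 8 weeks. The groups were vehicle, cisplatin alone (a platinum compound that damages DNA), brivanib alone (a kinase inhibitor aimed at VEGF and FGF receptors) and cisplatin plus brivanib, called the combination. Injections of 100 µL into the peritoneum began at a total tumour volume of at least 100 mm3 and were given 2 times per week for 4 weeks. The sources used here state no dose. Each group had 6 mice bearing 10 to 12 tumours, of which 3 were sequenced. The labels do not tie tumours to animals, so tumours of a group may share a host, and a p-value here reflects no more than how far these tumours differ.

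Acute phase proteins are secreted proteins whose blood level changes in inflammation or injury, when interleukin 6, interleukin 1 and tumour necrosis factor act on the liver through the factors STAT3, C/EBP and NF-kappa B. Some are also made outside the liver by fat, macrophages, fibroblasts and epithelia, and Saa3 is known as a serum amyloid made mainly outside the liver. They bind lipids and microbial products (Saa3, Lbp), scavenge iron and haem (Lcn2, Hp), carry copper and oxidize iron (Cp), restrain proteases (Serpina3n, Serpina3g) or attract leukocytes (Rarres2, also called chemerin).

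Recovered depth ran from 17.161 to 30.943 M fragments per library. Brivanib 5 stood apart, with 9.888% of its fragments on annotated ribosomal RNA and an FPKM total of 921510, against at most 0.257% and 527657 in the other 11. Its size factor over genes was 0.943 within a range of 0.943 to 1.05, so its gene values lay on the scale of the others. Epithelial markers were low: Krt18, Nkx2-1 and Sftpc were listed at 0 in all 12 libraries, and the mean log2(FPKM + 1) of the 10 epithelial and lung carcinoma markers was 0.420 to 0.785. Hepatocyte markers were at or near 0: 10 of 15 hepatocyte markers, among them Alb, Ttr, Apoa1 and Fgb, were at 0 in all 12 libraries, and the mean log2(FPKM + 1) of the 15 did not exceed 0.187.

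The deposited table places the genes on GRCm38, where all 8 are protein-coding genes. Saa3 lies at chr7:46711998-46715700 on the minus strand and Hp at chr8:109575128-109579172 on the minus strand. Serpina3g at chr12:104236245-104241939 and Serpina3n at chr12:104406729-104414329 lie on the plus strand in the same cluster of serpin genes. Lcn2 at chr2:32384633-32388252 (minus) and Lbp at chr2:158306493-158332852 (plus) share a chromosome. Rarres2 spans chr6:48569696-48572789 on the minus strand, and Cp spans chr3:19957054-20009145 on the plus strand.

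Promoters of 5 of the 8 genes were found in RefSeq's table for GRCm38.p6, namely those of Saa3, Serpina3n, Lcn2, Serpina3g and Cp. The bases before the transcripts are shown for 2 members that were higher with brivanib, Saa3 and Serpina3n, and for the 2 members that were not, Serpina3g and Cp. They are written 5′ to 3′ on the gene's strand, and capitals mark matches on either strand to 4 motifs: a kappa B motif, C/EBP (TTNNGNAA), STAT (TTCNNNGAA) and steroid receptor (ACANNNTGT).
Saa3, chr7:46715701-46715926, minus: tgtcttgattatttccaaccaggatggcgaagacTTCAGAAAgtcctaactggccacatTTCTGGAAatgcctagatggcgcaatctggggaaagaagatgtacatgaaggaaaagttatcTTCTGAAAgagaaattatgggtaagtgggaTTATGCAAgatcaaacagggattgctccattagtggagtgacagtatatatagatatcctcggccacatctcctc
Serpina3n, chr12:104406458-104406707, plus: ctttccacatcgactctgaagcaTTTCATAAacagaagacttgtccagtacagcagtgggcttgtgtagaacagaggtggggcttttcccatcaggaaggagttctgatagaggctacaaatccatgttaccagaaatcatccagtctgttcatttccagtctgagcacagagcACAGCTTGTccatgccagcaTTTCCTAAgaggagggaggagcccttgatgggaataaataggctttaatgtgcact
Serpina3g, chr12:104235897-104236146, plus: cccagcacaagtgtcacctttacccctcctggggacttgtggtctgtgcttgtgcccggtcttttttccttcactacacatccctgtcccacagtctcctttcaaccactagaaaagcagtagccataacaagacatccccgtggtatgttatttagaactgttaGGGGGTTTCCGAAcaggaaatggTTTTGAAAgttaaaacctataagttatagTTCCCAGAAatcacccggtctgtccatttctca
Cp, chr3:19956804-19957053, plus: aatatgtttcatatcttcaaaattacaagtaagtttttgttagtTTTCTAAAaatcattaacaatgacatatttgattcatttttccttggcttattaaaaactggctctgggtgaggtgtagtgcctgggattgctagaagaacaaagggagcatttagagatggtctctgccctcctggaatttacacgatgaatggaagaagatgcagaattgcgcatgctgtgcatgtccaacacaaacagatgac
The Saa3 promoter held 4 C/EBP matches, and that of Serpina3n held 2 C/EBP matches and 1 steroid receptor match. In Serpina3g a kappa B match overlapped a C/EBP match, and 1 further C/EBP match and 1 STAT match followed. The promoter of Cp held 1 C/EBP match in the window shown and 1 in a second, overlapping window of that gene, and that of Lcn2 held 1 C/EBP and 1 steroid receptor match. Of the 32841 promoters in the table, 36.9% had a C/EBP match in their 250 bases before the start, 7.25% a kappa B match, 7.02% a STAT match and 5.84% a steroid receptor match. The Lcn2 window and the second Cp window overlapped annotated transcripts of their genes, with 0 and 55 bases before them. Their matches lay within that overlap. The Serpina3g window ended at 104236146, short of the gene's first transcript at 104236245, and the bases after its start were not found in transcripts of the gene. These matches describe letters in the windows and show no binding.

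The members fell into sets by their level over the 4 groups. Saa3, Lbp and Rarres2 were high with brivanib alone and far lower with the combination, Hp, Serpina3n and Lcn2 were high in both groups given brivanib, Cp was high in both groups given cisplatin, and Serpina3g was about the same in all 4. The 5 most abundant members by FPKM in the brivanib group were Saa3, Rarres2, Hp, Serpina3n and Cp, whereas in vehicle tumours Cp alone was above 5 FPKM. In bulk RNA, fewer cells of a type and less RNA per cell cannot be told apart, which holds for every level below.

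**Figure D1:**
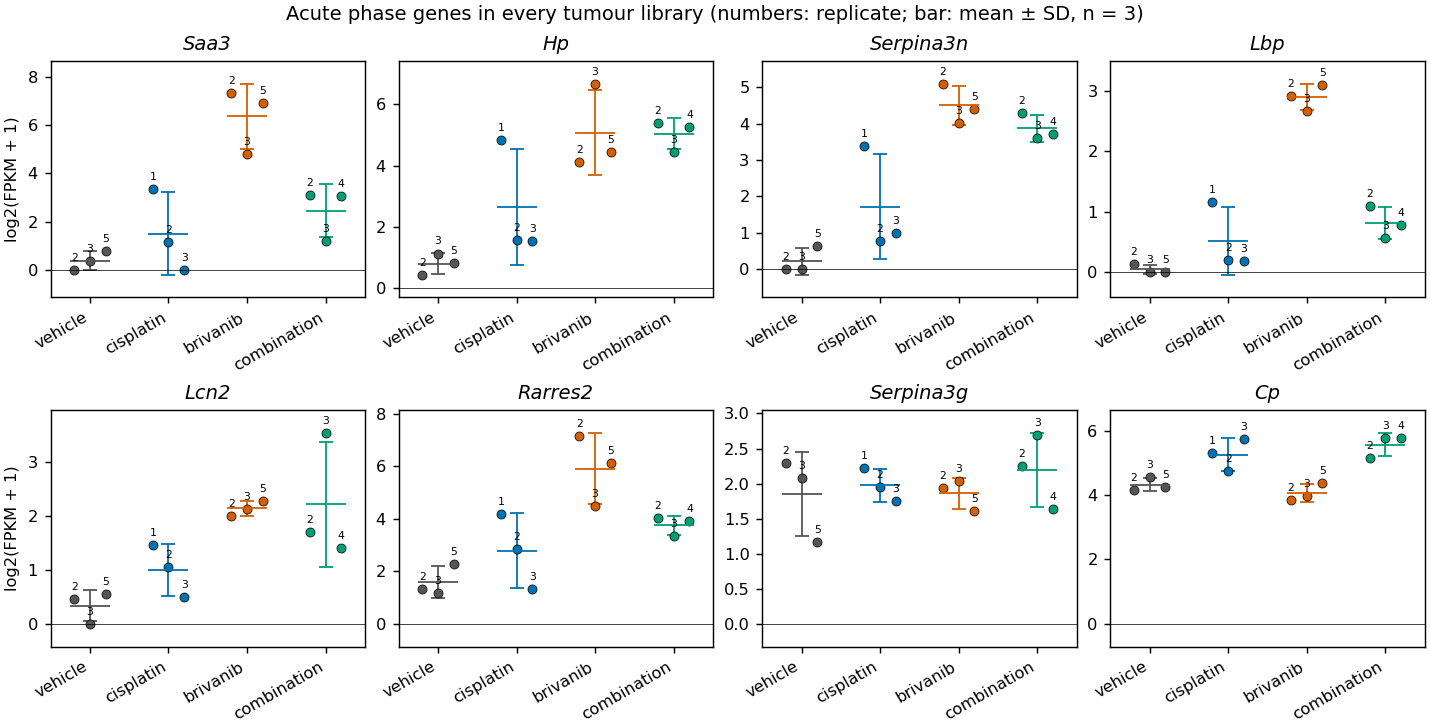
Level of each of the 8 genes in every library, as log2(FPKM + 1) on the vertical axis, with the 4 treatment groups on the horizontal axis; numbers are the replicate labels, the wide bar is the mean and the whisker 1 SD (n = 3). Saa3, Lbp and Rarres2 peak with brivanib alone, Hp, Serpina3n and Lcn2 stay high with the combination, and Cp is high in the groups given cisplatin.

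Saa3, the serum amyloid, was almost absent from vehicle tumours and reached the highest level of any member with brivanib. Its FPKM was 0, 0.306 and 0.704 in vehicle 2, 3 and 5, and 9.23, 1.25 and 0 in cisplatin 1, 2 and 3. It was 162, 27.3 and 120 in brivanib 2, 3 and 5, and 7.71, 1.27 and 7.33 in combination 2, 3 and 4. Every brivanib library exceeded all others, and combination lay above vehicle without overlap, whereas cisplatin overlapped both. The order of the group means was brivanib (103 ± 68.8, SD, n = 3), combination (5.44 ± 3.61), cisplatin (3.49 ± 5.01) and vehicle (0.337 ± 0.353), and neither combination and cisplatin nor cisplatin and vehicle differed beyond their spread. The 0 of vehicle 2 rests on 0 fragments, which allows up to 0.230 FPKM at 3 fragments on the leading transcript Saa3-201, and that of cisplatin 3 allows up to 0.263.

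Lbp, the plasma protein that hands lipopolysaccharide to CD14, showed the same shape at a lower level. Its FPKM was 0.0936, 0 and 0 in vehicle 2, 3 and 5, and 1.23, 0.153 and 0.135 in cisplatin 1, 2 and 3. It was 6.58, 5.37 and 7.62 in brivanib 2, 3 and 5, and 1.13, 0.476 and 0.712 in combination 2, 3 and 4. The brivanib libraries stood above all 9 others, and cisplatin overlapped combination. The vehicle value rests on 5 fragments in all, and the 2 libraries at 0 allow up to 0.0535 and 0.0619 FPKM. Lbp passed the filter of 1 FPKM through its brivanib libraries: its mean was 1.96 FPKM over 12 libraries but 0.403 over vehicle and combination and 0.641 over cisplatin and combination.

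Rarres2, the chemoattractant chemerin, which fat and stroma secrete as an inactive precursor, followed Saa3 closely. Its FPKM was 1.52, 1.24 and 3.79 in vehicle 2, 3 and 5, and 17.1, 6.23 and 1.48 in cisplatin 1, 2 and 3. It was 140, 21.0 and 68.2 in brivanib 2, 3 and 5, and 15.1, 9.04 and 13.8 in combination 2, 3 and 4. Brivanib was highest without overlap, combination was above vehicle without overlap, and cisplatin overlapped both lower groups. As for Saa3, brivanib 2 was the highest and brivanib 3 the lowest of the brivanib libraries.

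Hp, haptoglobin, binds free haemoglobin for uptake through the receptor CD163. Its FPKM was 0.347, 1.17 and 0.736 in vehicle 2, 3 and 5, and 27.8, 1.94 and 1.88 in cisplatin 1, 2 and 3. It was 16.2, 101 and 20.9 in brivanib 2, 3 and 5, and 41.0, 21.0 and 37.7 in combination 2, 3 and 4. All 9 treated libraries lay above the 3 vehicle libraries, brivanib and combination overlapped, and cisplatin 1 lay within the range of both. The means were 46.0 ± 47.5 (brivanib), 33.2 ± 10.8 (combination), 10.6 ± 15 (cisplatin) and 0.752 ± 0.413 (vehicle), and only vehicle stood apart from its neighbour in that order.

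Serpina3n is an inhibitor of serine proteases such as granzyme B and neutrophil elastase. Its FPKM was 0, 0 and 0.555 in vehicle 2, 3 and 5, and 9.52, 0.706 and 0.991 in cisplatin 1, 2 and 3. It was 33.2, 15.2 and 20.2 in brivanib 2, 3 and 5, and 18.5, 11.2 and 12.2 in combination 2, 3 and 4. Each group lay above the next in the order brivanib (22.9 ± 9.30), combination (14.0 ± 3.97), cisplatin (3.74 ± 5.01) and vehicle (0.185 ± 0.320), except that brivanib and combination overlapped. Vehicle 2 and 3 had 0 fragments, which allows up to 0.0617 and 0.0655 FPKM.

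Lcn2, or lipocalin 2, binds bacterial siderophores and is stored in neutrophil granules. Its FPKM was 0.377, 0 and 0.456 in vehicle 2, 3 and 5, and 1.74, 1.06 and 0.404 in cisplatin 1, 2 and 3. It was 2.98, 3.36 and 3.85 in brivanib 2, 3 and 5, and 2.25, 10.5 and 1.63 in combination 2, 3 and 4. Brivanib stood above vehicle and cisplatin, and the combination mean of 4.80 ± 4.97 rested on combination 3. That library also had the highest score of 14 neutrophil markers, a mean log2(FPKM + 1) of 1.91, against 0.942 and 0.960 in the other combination libraries, and the part of this in its Lcn2 level was not tested. Fragments were few, 0 to 36 per library in vehicle and cisplatin, and the 0 of vehicle 3 allows up to 0.148 FPKM.

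Cp, ceruloplasmin, carries copper in blood and oxidizes iron for loading onto transferrin. Its FPKM was 16.8, 22.4 and 18.2 in vehicle 2, 3 and 5, and 38.2, 25.6 and 52.5 in cisplatin 1, 2 and 3. It was 13.4, 14.7 and 19.9 in brivanib 2, 3 and 5, and 34.6, 53.5 and 54.2 in combination 2, 3 and 4. The 6 libraries given cisplatin lay above the 6 that were not, while the groups overlapped within each of these sets. The means were 47.4 ± 11.1 (combination), 38.8 ± 13.4 (cisplatin), 19.2 ± 2.91 (vehicle) and 16.0 ± 3.41 (brivanib).

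Serpina3g, an intracellular serpin known from T cells that inhibits cathepsins, did not separate the groups. Its FPKM was 3.92, 3.22 and 1.24 in vehicle 2, 3 and 5, and 3.66, 2.86 and 2.38 in cisplatin 1, 2 and 3. It was 2.84, 3.08 and 2.05 in brivanib 2, 3 and 5, and 3.76, 5.45 and 2.11 in combination 2, 3 and 4. All 4 groups overlapped one another. Counts were 30 to 138 fragments per library.

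With brivanib alone, 6 of the 8 members lay above vehicle in every library: Saa3 by 5.98 on the scale of log2(FPKM + 1), which understates the change of low genes, Rarres2 by 4.32, Hp by 4.30, Serpina3n by 4.29, Lbp by 2.86 and Lcn2 by 1.80. Of all genes tested 8.95% were higher without overlap in this comparison, and 1.81% were called at an adjusted p under 0.05. The median of the 8 members was 3.58, against -0.010 for all 14246 genes. This comparison chose most of the members, so the count describes how they were chosen. Between the combination and brivanib alone, Saa3 (-3.91), Rarres2 (-2.16) and Lbp (-2.09) were lower without overlap, Cp (1.50) was higher without overlap, and Hp (-0.035), Serpina3n (-0.63), Lcn2 (0.076) and Serpina3g (0.33) overlapped. Of all genes 9.14% were lower and 14.1% higher without overlap, and 3.87% were called.

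The combination against cisplatin asks what brivanib added to cisplatin, and it shares no library with brivanib against vehicle, which chose most members. Its combination libraries also stand in the combination against brivanib, which may have entered the choice, so its values are not fully independent of it. Hp, Serpina3n and Lcn2 had the largest differences, but no member passed the test. Serpina3n was 2.15 ± 0.56 higher on the log2 scale (SE; adjusted p = 0.657, limma), and it was the only member whose groups did not overlap, where 4.94% of all genes were higher without overlap. Hp differed by 2.40 ± 0.83 (adjusted p = 0.694) and Lcn2 by 1.21 ± 0.45 (adjusted p = 0.696), and in both cisplatin 1 overlapped the combination. The values of Rarres2 (0.96), Saa3 (0.95), Cp (0.31), Lbp (0.29) and Serpina3g (0.22) had 95% intervals that included 0, the widest being -0.88 to 2.77 for Saa3. All 8 differences were above 0, with a median of 0.95, against -0.019 for all genes. Limma called 0 of the 8 and 0% of all genes, 3 members had an unadjusted p under 0.05 (960 of all 14246 genes did), and voom on recovered fragments called 0 members. Without cisplatin 1, Serpina3n passed (2.99, adjusted p = 0.0256).

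In the combination against vehicle, 3 of the 8 members were higher at an adjusted p under 0.05, where 1.82% of all genes were called higher and 2.34% in either direction. This comparison shares its vehicle libraries with the one that chose most members, so the calls are not independent evidence. Hp rose by 4.26 ± 0.83 on the log2 scale (adjusted p = 0.0241), Serpina3n by 3.66 ± 0.56 (adjusted p = 0.0118) and Cp by 1.25 ± 0.25 (adjusted p = 0.0280). Lcn2 differed by 1.87 ± 0.45 (adjusted p = 0.0536), Rarres2 by 2.16 ± 0.71 (adjusted p = 0.128), Lbp by 0.77 ± 0.27 (adjusted p = 0.146) and Saa3 by 2.07 ± 0.84 (adjusted p = 0.208). Serpina3g differed by 0.35 ± 0.31 (adjusted p = 0.603). In all but Serpina3g the groups did not overlap, Lbp included, which passed the filter only through brivanib, where 17.2% of all genes were higher without overlap. The median of the 8 was 1.97, against 0.043 for all genes.

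The 3 calls rested on few libraries. Hp missed the threshold without any 1 of the 6 vehicle and combination libraries (adjusted p from 0.0513 to 0.0920), Serpina3n without vehicle 2 or 3 or combination 2 (0.0555, 0.0573 and 0.0587), and Cp without vehicle 2, 3 or 5 or combination 3 or 4 (0.0629 to 0.109). Lcn2 passed without combination 4 (2.28, adjusted p = 0.0325) and with log2(FPKM + 0.1) (3.56, adjusted p = 0.0370). Rarres2 passed in 1 of 23 alternatives (adjusted p = 0.0242, limma). Voom on recovered fragments also called 3 members, in part other ones: Serpina3n (adjusted p = 0.0340), Cp (0.0372) and Lbp (0.0482), while Hp missed the threshold (0.0748). With the adipocyte marker score as a covariate no member passed. The difference of Hp fell to 2.21 (adjusted p = 0.212), while those of Serpina3n and Cp were 3.35 and 1.32. That fit called 4 of all genes, against 333 in the main fit.

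**Figure D2:**
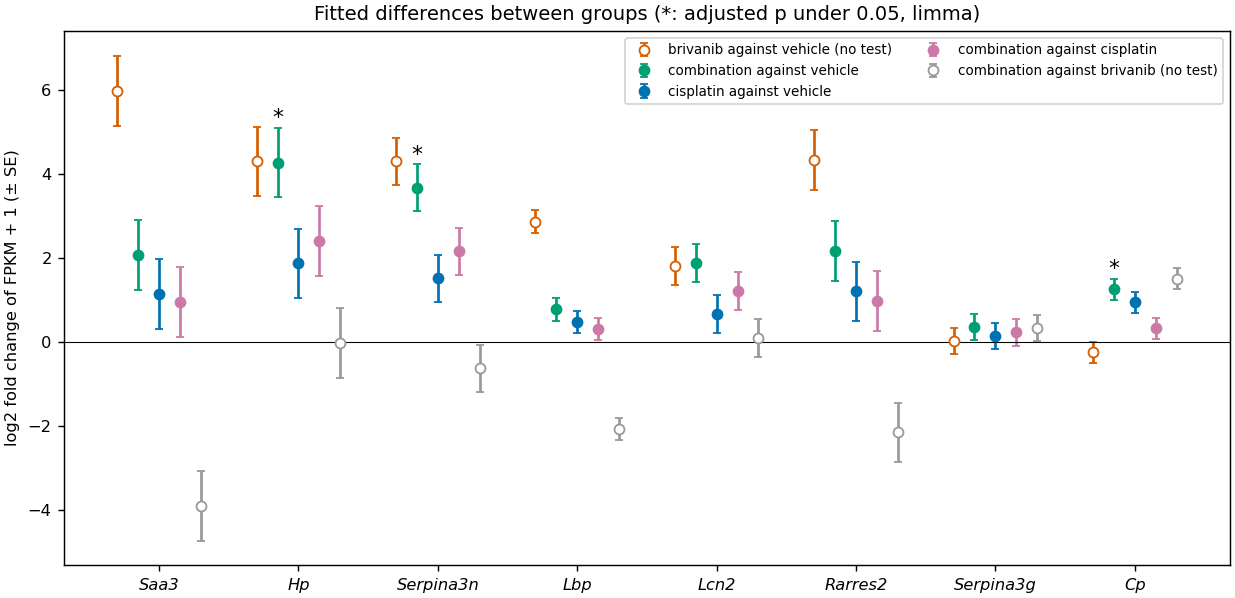
Fitted difference of each gene in 5 comparisons, as the log2 fold change of FPKM + 1 on the vertical axis with 1 SE; open circles are comparisons given as a description and asterisks mark an adjusted p under 0.05 (limma). Asterisks stand over Hp, Serpina3n and Cp in the combination against vehicle, and no cisplatin against vehicle or combination against cisplatin value carries one.

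Cisplatin alone against vehicle gave smaller differences, and none passed. Cp was higher by 0.93 ± 0.25 on the log2 scale (adjusted p = 0.130, limma), Hp by 1.86 ± 0.83 (adjusted p = 0.332), Serpina3n by 1.51 ± 0.56 (adjusted p = 0.244) and Lbp by 0.47 ± 0.27 (adjusted p = 0.450), each without overlap. Of all genes 17% were higher without overlap here. Lbp and Lcn2 were among the genes tested only through the other groups, with a mean of 0.269 and 0.673 FPKM over vehicle and cisplatin, and the Lbp libraries nearest each other held 7 fragments (cisplatin 3) and 5 (vehicle 2). Rarres2 (1.2), Saa3 (1.12), Lcn2 (0.66) and Serpina3g (0.13) overlapped vehicle. Limma called 0 of 8 members, against 0.19% of all genes, and voom on recovered fragments called 0. At an unadjusted p under 0.05 there were 3 members, and 2036 of all 14246 genes. Cisplatin 1 was the highest cisplatin library for 7 of the 8 members, all but Cp. It also had the highest scores within its group for adipocyte (1.64 against 0.648 and 0.722), muscle (1.50), fibroblast (4.45) and macrophage (4.30) markers, and their part in its levels was not tested.

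The members also varied together within groups. After the group means were removed, Saa3 correlated with Rarres2 at r = 0.92 over the 12 libraries, with Lbp at 0.83 and with Serpina3n at 0.81, and Serpina3n correlated with Lbp at 0.87. These are descriptions over libraries that share cisplatin 1 and the brivanib libraries as their extremes. Hp followed Lbp (0.56) and Serpina3n (0.57) less closely within groups, and Lcn2, Serpina3g and Cp had no value above 0.49 with any other member. Over all 12 libraries Cp ran from -0.43 with Lbp to 0.23 with Serpina3g.

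The tested genes whose log2(FPKM + 1) was most like each member over the 12 libraries, by Pearson's r, are given as a description. Gene models with provisional names were left out of this ranking. For Saa3 they were the extracellular superoxide dismutase Sod3 (0.99), the adhesion receptor Adgrd1 (0.98) and complement factor B, Cfb (0.98). For Lbp they were the matrix genes Prelp (0.99) and Ccdc80 (0.98) and the Wnt antagonist Sfrp1 (0.98), and for Rarres2 Gfpt2 (0.98), Saa3 (0.97) and the C1 inhibitor Serping1 (0.96). For Hp they were adipsin, Cfd (0.96), the glutathione transferase Mgst1 (0.92) and the macrophage lectin Clec10a (0.91). For Serpina3n they were Crispld2 (0.97), the haemoglobin scavenger receptor Cd163 (0.96) and Mgst1 (0.96). Lcn2 was most like the small heat shock protein Cryab (0.92), the fatty acid receptor Cd36 (0.92) and Prickle1 (0.88). Cp was most like Dmxl1 (0.96), the clock gene Per1 (0.95) and the immunophilin Fkbp5 (0.94), and Serpina3g had no gene above 0.86 (Zfp239). These r values share the libraries and the group differences, and the highest of the tested genes left in the ranking were taken.

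Dmxl1, the gene most like Cp, averaged 17.2, 35.2, 14.4 and 39.9 FPKM in vehicle, cisplatin, brivanib and combination. Fkbp5 was 42.4, 43.1 and 39.7 FPKM in vehicle 2, 3 and 5, 93.8, 56.4 and 113 in cisplatin 1, 2 and 3, 35.3, 44.1 and 38.3 in brivanib 2, 3 and 5, and 89.7, 140 and 87.6 in combination 2, 3 and 4. As for Cp, its 6 libraries given cisplatin lay above the 6 that were not. Cfd, the gene most like Hp, was listed at 0 in the 3 vehicle libraries and in cisplatin 2, at 0.559 FPKM in cisplatin 3 and 20.0 in cisplatin 1. It was 4.72, 97.3 and 3.21 in brivanib 2, 3 and 5, and 37.6, 11.7 and 26.5 in combination 2, 3 and 4, so brivanib 3 was highest for both Hp and Cfd.

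A list of 45 other acute phase genes was read in the same way, of which 44 were in the table and 15 were tested. The classical liver proteins among them, C-reactive protein (Crp), serum amyloid P (Apcs), the fibrinogen chains Fga, Fgb and Fgg, hepcidin (Hamp), 4 of the Serpina1 genes and Mug1, were at 0 in all 12 libraries. The liver serum amyloids Saa1 and Saa2, near-identical copies of each other whose values are uncertain in how they were split, did not exceed 0.324 and 0.181 FPKM in any library. In the combination against cisplatin 0 of the 15 passed and the median was 0.17. The largest moderated statistics there were those of the metalloreductase Steap4 (0.57 ± 0.21, adjusted p = 0.696) and of Serping1 (1.18 ± 0.54, adjusted p = 0.740). Cisplatin and the combination against vehicle also gave 0 of 15 with limma, with medians of 0.094 and 0.60. At an unadjusted p under 0.05 the counts were 1 (combination against cisplatin), 2 (cisplatin against vehicle) and 6 (combination against vehicle). Voom on recovered fragments called 0 in each of these comparisons. Of all 14246 genes 960, 2036 and 2674 had an unadjusted p under 0.05 in them. With brivanib alone 1663 did, and between the combination and brivanib 3096 did. These totals stand beside the list counts below.

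With brivanib alone 7 of these 15 genes rose and 0 fell against vehicle, where 1.71% of all genes were called higher, with a median of 1.50 against -0.010 for all genes. They included Serping1 (3.75 ± 0.54, adjusted p = 0.00485), Cfb (3.17 ± 0.39, adjusted p = 0.00280) and Steap4 (1.50 ± 0.21, adjusted p = 0.00437). Cfb was 1.19, 2.73 and 1.95 FPKM in vehicle 2, 3 and 5 and 32.0, 19.3 and 25.0 in brivanib 2, 3 and 5, and it fell back to 7.25, 2.44 and 6.00 in combination 2, 3 and 4. Between the combination and brivanib, where 1.85% of all genes were called lower, 5 of the 15 fell: the protease inhibitor Timp1 (-1.11), the complement genes C3 (-2.17), C4b (-2.23) and Cfb (-2.15), and the pentraxin Ptx3 (-2.78), of which all but Cfb are named after their values were seen. Ptx3 passed the filter of 1 FPKM only through brivanib, with means of 0.0628, 0.946 and 0.653 FPKM in vehicle, cisplatin and combination. The list was drawn up with earlier results of these libraries known, so its count is no independent evidence.

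**Figure D3:**
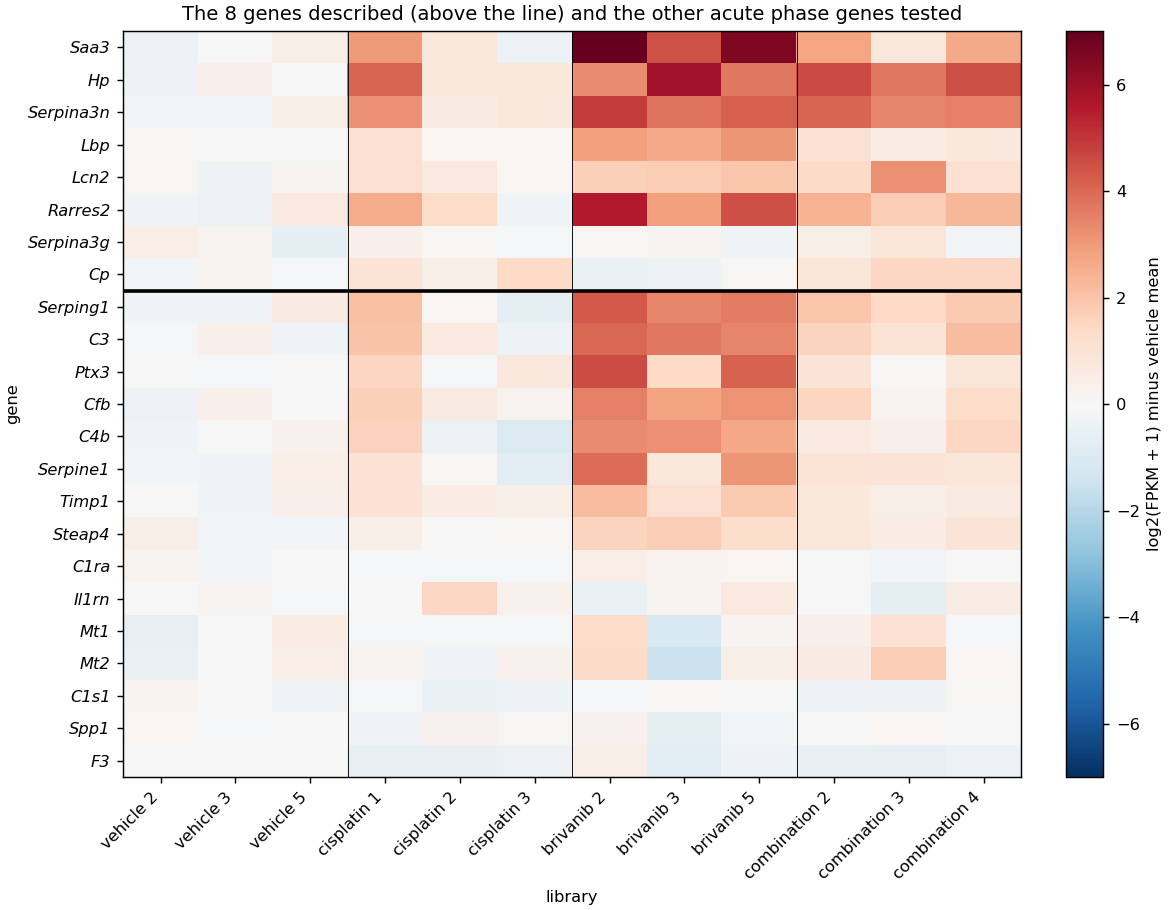
Level of the 8 genes described (above the black line) and of the 15 other acute phase genes tested (below it) in each of the 12 libraries, as log2(FPKM + 1) minus the vehicle mean, in colour. Brivanib columns are reddest for Saa3, Rarres2, Hp and Serpina3n, and red for the complement genes Serping1 and Cfb but not for C1s1. Combination columns keep Hp and Serpina3n, and Cp is raised in the columns given cisplatin.

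Of 12 inducing cytokines 7 were tested, and 0 passed with limma or with voom in any of the 5 comparisons. At an unadjusted p under 0.05 there was 1 with brivanib alone, 2 between the combination and brivanib, and 0 in the other 3 comparisons. Il17a and Il22 were at 0 in all 12 libraries. Il6, interleukin 6, was 0.0725, 0.192 and 0.445 FPKM in vehicle 2, 3 and 5 and 4.07, 0.978 and 3.16 in brivanib 2, 3 and 5, and it was at most 1.07 in the other 6 libraries. Its groups did not overlap between brivanib and vehicle, and the difference of 1.50 ± 0.34 just missed the threshold (adjusted p = 0.0510, limma). Il6 is named after its values were seen. It averaged 0.237, 0.420, 2.74 and 0.623 FPKM in vehicle, cisplatin, brivanib and combination. It thus passed the filter of 1 FPKM only through brivanib, and its adjusted p is not independent of that. Cntf (-0.61 ± 0.30, adjusted p = 0.757) and Lif (0.67 ± 0.37, adjusted p = 0.775) had the largest statistics in the combination against cisplatin. Of 19 receptors and signal transducers of these cytokines 17 were tested: Il17ra rose in the combination against vehicle (0.76 ± 0.13, adjusted p = 0.0215), where 0 fell, and 0 passed with limma or voom with cisplatin alone (2 at an unadjusted p under 0.05) or between the combination and cisplatin (0). With brivanib alone Il11ra1 rose (1.15 ± 0.23, adjusted p = 0.0281). Between the combination and brivanib 2 of the 17 rose, Il17ra (0.80 ± 0.13, adjusted p = 0.0122) and the interleukin 6 receptor Il6ra (0.77 ± 0.19, adjusted p = 0.0475), and 1 fell, Il11ra1 (-1.21 ± 0.23, adjusted p = 0.0188), where 2.02% of all genes were called higher. Il11ra1 and Il6ra are named after their values were seen.

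Of 24 transcription factors and feedback genes 22 were tested. In the combination against vehicle 3 rose and 0 fell: Per1 (1.47 ± 0.28, adjusted p = 0.0234), Fkbp5 (1.29 ± 0.23, adjusted p = 0.0218) and the leucine zipper gene Tsc22d3 (2.41 ± 0.46, adjusted p = 0.0235). Stat3 and the inflammatory factor Cebpb were not called in any comparison, with group means of 28.8 to 33.9 and 24.0 to 33.8 FPKM. With brivanib alone 1 passed, Cebpa (1.45 ± 0.30, adjusted p = 0.0320), which is named after its values were seen together with the factors of the last sentence. Against brivanib the combination had 3 of the 22 higher and 0 lower: Per1 (1.84 ± 0.28, adjusted p = 0.00905), Fkbp5 (1.38 ± 0.23, adjusted p = 0.0122) and Tsc22d3 (2.49 ± 0.46, adjusted p = 0.0167). Between the combination and cisplatin 0 of the 22 passed with limma or voom and 2 had an unadjusted p under 0.05, the largest statistics being those of Nfkb1 (-0.27 ± 0.10, adjusted p = 0.695) and Tsc22d3 (1.10 ± 0.46, adjusted p = 0.725).

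Of 25 receptors and partners of the members 19 were tested. Cd163, the receptor for haptoglobin with bound haemoglobin, rose in the combination against vehicle (1.99 ± 0.44, adjusted p = 0.0397) and with brivanib alone (2.87 ± 0.44, adjusted p = 0.00652). Cd36 rose in the combination against vehicle (1.93 ± 0.35, adjusted p = 0.0218). No other gene of the list passed in either comparison, and 0 passed with cisplatin alone or between the combination and cisplatin, where Cd36 (1.10 ± 0.35, adjusted p = 0.657) and the cathepsin Ctsl (0.30 ± 0.11, adjusted p = 0.696) came nearest. At an unadjusted p under 0.05 the counts there were 3 and 2, and voom called 0 in both. The iron exporter Slc40a1 fell between the combination and brivanib (-1.90 ± 0.40, adjusted p = 0.0245), where 0 rose; it is named after its values were seen. Of 8 proteins that fall in the acute phase 4, with albumin (Alb) and transthyretin (Ttr) among them, were at 0 in all libraries, and 0 of the 2 tested, Trf and Rbp4, passed with limma or voom in any comparison. At an unadjusted p under 0.05 there was 1 with brivanib alone, 1 for the combination over vehicle and 1 for the combination over cisplatin.

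Markers of other cells of the flank moved with the members. Over 15 adipocyte markers, none of them at 0 in all libraries, the mean log2(FPKM + 1) was 0.707 to 0.719 in vehicle, 0.648 to 1.64 in cisplatin, 0.943 to 2.91 in brivanib and 1.84 to 2.0 in the combination. The adipokine Adipoq was listed at 0 in vehicle 2 and 3 and at 0.0806 FPKM in vehicle 5, at 12.5 in brivanib 3 and at 1.58 to 4.08 in the combination. Of the 9 adipocyte markers tested, resistin (Retn) rose in the combination against vehicle (2.03 ± 0.45, adjusted p = 0.0397) and 0 fell. Retn averaged 0, 0.428, 0.809 and 3.18 FPKM in vehicle, cisplatin, brivanib and combination. It passed the filter of 1 FPKM only through the combination, so this call is no independent evidence. Hp correlated with the adipocyte score at r = 0.88 over the 12 libraries and 0.85 within groups, whereas Cp did at 0.16 and -0.11, and Saa3 at 0.36 and -0.19. The part of adipocyte RNA in the Hp values was not tested. In the covariate fit the call of Hp against vehicle was lost. Those of Serpina3n and Cp were lost as well, and calls over all genes fell from 333 to 4. The score was higher in every combination library than in every vehicle library, so that fit cannot separate the score from the treatment.

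Over 15 fibroblast markers the score was 5.31 to 5.51 in brivanib, 3.11 to 4.07 in vehicle, 3.64 to 4.45 in cisplatin and 3.30 to 4.13 in the combination. Over 14 macrophage markers it was 4.69 to 5.02 in brivanib, against 3.30 to 3.98 in vehicle, 3.40 to 4.30 in cisplatin and 3.31 to 4.57 in the combination. Saa3 and Lbp correlated with the fibroblast score at r = 0.89 and 0.92 over the 12 libraries (0.56 and 0.57 within groups). With the macrophage score they correlated at 0.87 and 0.84 (0.58 and 0.48 within groups). Rarres2 correlated with the fibroblast score at 0.82 (0.49 within groups). The part of either cell type in the levels of Saa3, Lbp and Rarres2 was not tested. With brivanib alone 7 of the 15 fibroblast markers and 2 of the 14 macrophage markers rose against vehicle, where 1.71% of all genes were called higher. Between the combination and brivanib, where 1.85% of all genes were called lower, 8 fibroblast markers and 0 macrophage markers fell with limma. Of the macrophage markers 10 had an unadjusted p under 0.05 there (3096 of all 14246 genes did), and voom called 1. The fibroblast markers Pi16, Fbln1 and Clec3b passed the filter of 1 FPKM only through brivanib. Their means were 10.8, 7.10 and 6.44 FPKM with brivanib and at most 0.571, 0.748 and 0.397 in any other group. The fibroblast counts are therefore not independent of the filter. Some fibroblast markers differed little between brivanib and vehicle. Pdgfra averaged 24.2 and 23.5 FPKM there, Dcn 137 and 135, Dpt 54.7 and 53.1, and Lum 185 and 198. Of the 15, 11 were higher with brivanib without overlap, where 8.95% of all genes were.

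Skeletal muscle markers were high in brivanib 3 (4.15) and brivanib 5 (3.90) but not in brivanib 2 (0.399), the library with the most Saa3 and Rarres2. The neutrophil score was 0.571 to 1.02 in vehicle, 0.567 to 1.34 in cisplatin, 0.835 to 1.85 in brivanib and 0.942 to 1.91 in the combination, and Lcn2 correlated with it at r = 0.77 (0.70 within groups). The score of 10 endothelial markers was 3.06 to 3.32 in vehicle, 2.82 to 3.57 in cisplatin, 2.73 to 3.43 in brivanib and 2.51 to 2.91 in the combination, so the combination lay below vehicle without overlap where Hp, Serpina3n and Cp were higher. Of the 10 markers 2 were higher in the combination: Eng averaged 45.9 FPKM against 36.1 in vehicle, and Plvap 17.3 against 13.5. Limma called 0 of the 10 between these groups, 6 had an unadjusted p under 0.05 (2674 of all 14246 genes did), and voom called 1. The part of this in the members' values was not tested. Of 11 keratinocyte markers 5 were at 0 in all libraries, and 1 was tested, Sbsn. Their score still correlated with Saa3 at r = 0.88 (0.68 within groups), with Rarres2 at 0.86 (0.75) and with Lbp at 0.85 (0.54). Hp correlated with the score of hepatocyte markers, which stayed near 0, at 0.83 (0.71 within groups). The r values with marker scores therefore do not tell which cells made a member's RNA.

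**Figure D4:**
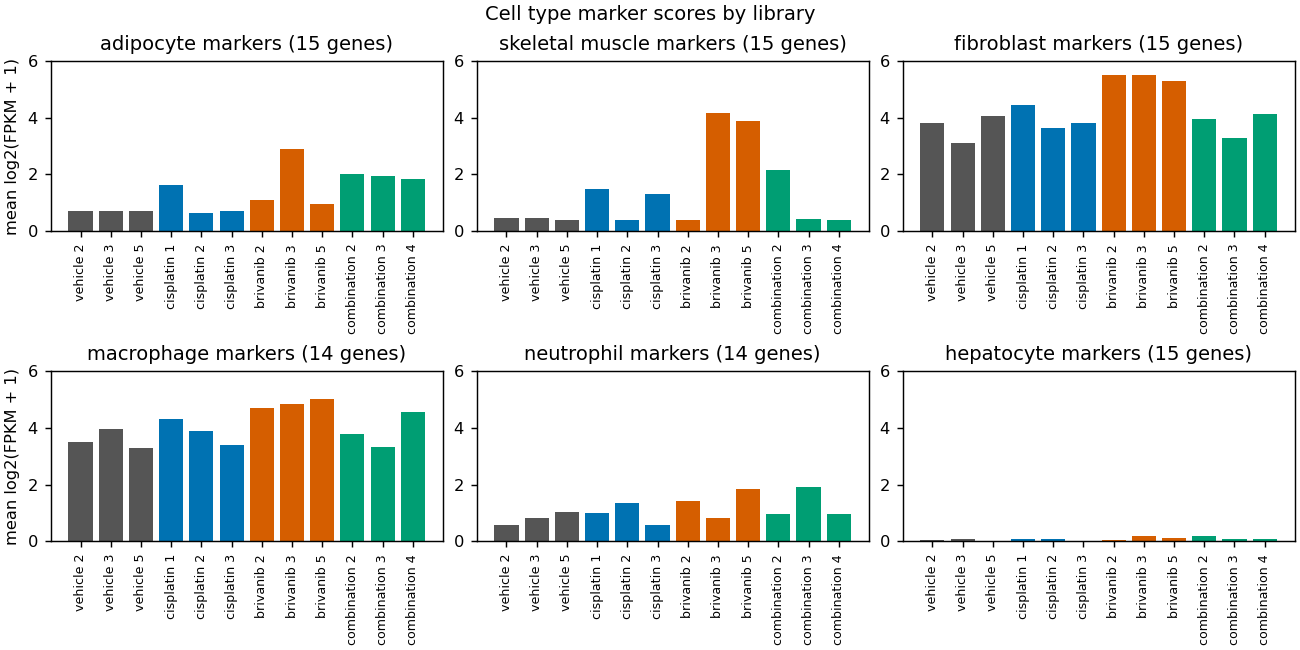
Mean log2(FPKM + 1) of 6 sets of cell type markers (vertical axis) in each library (horizontal axis); bars are single libraries, coloured by group. Adipocyte markers are high in brivanib 3, the combination and cisplatin 1, fibroblast and macrophage markers in the 3 brivanib libraries, and hepatocyte markers stay near 0.

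The isoforms behind the sums differed between members. Saa3-201, Hp-201 and Serpina3n-201 carried 99.7%, 99.9% and 100% of the FPKM of their genes, and Lbp-201 carried 91.4%. Rarres2 was carried by the coding Rarres2-204 (60.8%) and Rarres2-201 (23.6%). For Lcn2 the coding Lcn2-201 carried 73.7% and the non-coding Lcn2-204 10.1%. In vehicle, Lcn2-201 had a value above 0 in vehicle 5 only (0.285 FPKM). The vehicle libraries together held 15 Lcn2 fragments, too few to settle the shares of coding and non-coding transcripts there. RSEM divides fragments between overlapping isoforms and, for the serpins, between similar genes, so these shares are estimates.

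Serpina3g was split between Serpina3g-201 (49.3%), Serpina3g-202 (27.1%) and Serpina3g-204 (17.8%), all coding. Serpina3g-204 was at 0 in the 3 vehicle libraries and at 1.07, 0.619 and 0.939 FPKM in cisplatin 1, 2 and 3, whereas it was at 0 in brivanib 5 and combination 4. Of the 16 Cp transcripts, 3 carried at least 10% of the FPKM: the retained-intron transcript Cp-206 (33.0%, but 10.2% of the fragments, since it is 814 bases long), and the coding Cp-202 (28.2%, 42.8% of the fragments) and Cp-204 (10.8%, 18.4%).

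Cp-202 was 3.84, 4.93 and 3.52 FPKM in vehicle 2, 3 and 5, 9.25, 6.19 and 14.8 in cisplatin 1, 2 and 3, 2.69, 3.97 and 5.66 in brivanib 2, 3 and 5, and 10.5, 18.4 and 18.8 in combination 2, 3 and 4. Its 6 libraries given cisplatin were again above the 6 that were not. With coding transcripts alone, Cp rose by 1.32 in the combination against vehicle (adjusted p = 0.0367), a setting chosen after the data were seen.

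**Figure D5:**
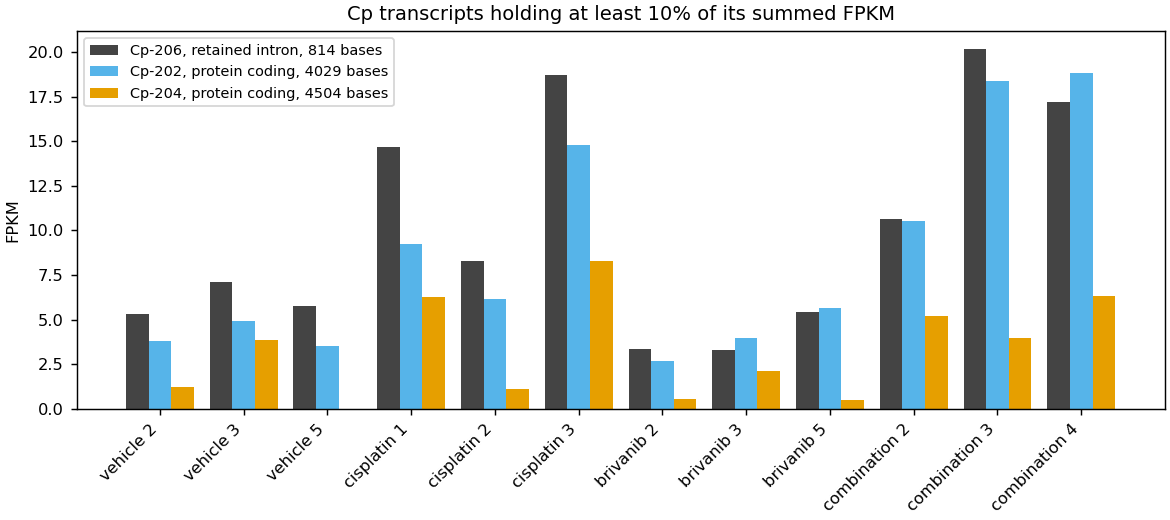
FPKM (vertical axis) of the 3 Cp transcripts that carry at least 10% of the gene's summed FPKM, in each library (horizontal axis); bars are single libraries. Cp-202 and the retained-intron Cp-206 are both higher in the 6 libraries given cisplatin than in the 6 that were not.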

How the data were processed

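RNA of 12 tumours, 3 per group, was sequenced on a BGISEQ-500 and aligned with Bowtie2 to mm10 per the series' design text; the submitters' processing notes name Bowtie2 2.2.5, RSEM 1.2.12, HISAT, Bowtie and mm9. The authors deposited FPKM per transcript, estimated with RSEM per the labels' design text. Of 135276 transcripts 134952 were in GENCODE M21 on GRCm38, 98.5% of them at identical coordinates. Dropped were 3 broken lines and 1 column that matched no sample label. FPKM times length went in whole fragments within 0.01 (all values up to 100 fragments), which gave the depths; they cover counting error only.

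Transcripts were summed to genes, and genes with a mean FPKM of at least 1 were tested with limma 3.58.1 (R 4.3.3) on log2(FPKM + 1): 4 group means, 8 residual degrees of freedom, mean-variance trend, two-sided, Benjamini-Hochberg adjustment over 14246 genes, threshold 0.05. Simulated log2 changes of 1, 2, 3 and 4 in the combination against cisplatin (50 genes each, 14246 genes) were recovered in 76%, 96%, 98% and 100%. The simulation used normal noise and planted all these changes at once, which eases the adjusted threshold. In the data this comparison called 0 genes, so the rates do not say how often such changes in the members would be found.

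The members and the 15 gene lists were chosen with earlier results of these data known. Named are all 8 members with each transcript carrying at least 10%, and the 3 tested genes most like each, provisional gene models left out. Of each list, named are the called genes (up to 4) or else the 2 with the largest moderated statistic in the combination against cisplatin. Marker scores are means of log2(FPKM + 1). Same-numbered libraries were not treated as pairs: 3 of 13 such pairs had deviations correlated above 0.1, up to 0.21 for cisplatin 3 with brivanib 3. Differently numbered libraries were not compared in this way, so a shared batch is not excluded. Alternatives covered the pseudocount, filter, scaling, samples, voom, a replicate block, marker covariates, coding transcripts and leaving out each library.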

Additional observations from a re-analysis of the deposited data

Results flagged for a closer look

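For Lbp, cisplatin had values of opposite sign in the absence and presence of brivanib. Cisplatin alone lay above vehicle in every library (0.47 on the log2 scale, 95% interval -0.11 to 1.05), a difference that did not pass the test (adjusted p = 0.450, limma) and in which cisplatin 2 and 3 held 9 and 7 fragments against 5, 0 and 0 in vehicle 2, 3 and 5. The combination lay below brivanib alone in every library (-2.09). The change of sign was not particular to Lbp. With cisplatin alone, then between the combination and brivanib, Saa3 had 1.12 and -3.91, and Rarres2 1.2 and -2.16. Serpina3n had 1.51 and -0.63, and Hp 1.86 and -0.035. Lbp was the only member with opposite signs and no overlap in both comparisons. Lcn2, Serpina3g and Cp were above 0 in both. The difference between the effects was not tested for any member, because the brivanib libraries entered the choice of the members.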

How the results depend on the processing

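With 3 tumours per group, 23 alternatives were run for each count of calls. The number of members called in the combination against vehicle was 3. It was 1 with every gene of mean FPKM above 0 and 1 with the replicate block (Serpina3n alone). It was 0 with the adipocyte score as a covariate, 0 to 3 without 1 library, and 0 to 4 over the 23 alternatives. In the combination against cisplatin it was 0, and 0 to 1 without 1 library; with cisplatin alone it was 0 under every alternative run. Calls were lost in 10 of 23 alternatives for Hp, 4 for Serpina3n and 8 for Cp, with the direction kept in all of them.

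Among all genes, the combination against cisplatin called 0, 3 with every gene of mean FPKM above 0 and 0 to 2 without 1 library. Cisplatin against vehicle called 27: 13 with log2(FPKM + 0.1), 7 with every gene of mean FPKM above 0, 45 at a mean FPKM of at least 5, 15 with median-of-ratios scaling, 16 with quantile normalization, 42 with only the 2 groups compared, 0 with voom, 0 with the replicate block, 5 with the adipocyte covariate, 11 with coding transcripts only, and 0 to 100 without 1 library. The combination against vehicle called 333: 125 with every gene of mean FPKM above 0, 35 with the replicate block, 4 with the adipocyte covariate, 207 with coding transcripts only, and 21 to 525 without 1 library. Brivanib against vehicle called 258: 69 at a mean FPKM of at least 5, 103 with the adipocyte and 58 with the muscle covariate, and 116 to 282 without 1 library.

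Serpina3g changed sign with cisplatin alone: -0.052 with voom, -0.23 with the replicate block and -0.21 without vehicle 5, within -0.21 to 0.36 without 1 library. In the combination against cisplatin it was -0.033 without combination 3, within -0.033 to 0.49 without 1 library. The cause of these changes was not tested. Medians of all genes lay between -0.019 and 0.070 in the 5 comparisons, and between -0.0074 and 0.0017 after median-of-ratios scaling. Depth limits Saa3, Lbp, Lcn2 and Serpina3n most in vehicle tumours, where the 3 libraries together held 18, 5, 15 and 22 fragments. The setting of coding transcripts only was chosen after seeing the data.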
